A study of Homo sapiens with 4 samples.

Results

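The genes described here are the short protein-coding genes of a table of 4208 rows, each row being a gene with reads counted on either side of its polyadenylation site (PAS). A row was taken when its RefSeq type was coding and its annotated start and end lay 500 to 4000 nt apart. This held for 387 rows, of which 60 were left out by symbol because they code for replication-dependent histones, ribosomal proteins of the cytoplasm and the mitochondria, respiratory chain subunits, mitochondrial import subunits or a few well-known damage-response genes (FOS, FOSB, JUN, BTG2, GADD45A) or NGFRAP1. The remaining 327 genes are called the short genes below. Among the rows of the table, length, annotation and symbol chose them. The table itself held only genes that met a minimum of reads on each side of the PAS, with or without UV, so read counts had a part in the choice. The short genes were also chosen with earlier results of these data known. The table holds nuclear RNA of A549, a human lung tumor cell line, with 2 libraries from cells left for 16 h after a UV dose of 40 J/m2 at 254 nm (UV+) and 2 from cells that received none (UV−), and the question was how UV changes RNA before and after the cleavage point. All 4 libraries came from the same unmodified line grown in the same medium, and the methods describe the 2 libraries of a condition as biological replicates.

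A PAS is the stretch at which a nascent transcript is cut and given its poly(A) tail. It usually carries the hexamer AATAAA, or the variant ATTAAA, a short way before the cut. RNA upstream of the PAS comes from cleaved and uncleaved transcripts alike, whereas RNA downstream of it comes from transcripts that were not cut there or had not yet been degraded after the cut, so the downstream/upstream ratio is read as a measure of the uncleaved share. UV lesions block elongating RNA polymerase II, and a short gene offers a smaller target than a long one. Many rapidly induced genes, secreted factors, small metabolic enzymes and intronless genes belong to this size class.

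The upstream windows held 262657 to 481798 reads per library over all rows and the downstream windows 50814 to 92566. Of these, 27822 to 76366 upstream and 3045 to 10360 downstream reads fell in the short genes, with a median short gene at 21 to 51 reads upstream but only 5 to 15 downstream. A ratio of a typical short gene therefore rests on few downstream reads, and low values are given as reads where this matters. Replicates of a condition differed by more than counting noise, the chi-square divided by its degrees of freedom being between 1.54 and 5.7. Of 8 markers chosen for A549 and lung epithelium, 4 had a row (KRT7, KRT18, AKR1B10 and ALDH1A1), and KRT8, KRT19, EPCAM and CDH1 had none. Of 12 markers of blood, endothelial and connective tissue cells 0 had one. A row can also be missing because of few reads in a window or a neighboring gene. Missing rows therefore do not tell which cells were present.

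The short genes had a median length of 2625 nt. No intron was annotated in 78 of them, 244 had introns and 5 were not matched to a transcript. They lay on many chromosomes, led by chromosome 19 with 34, chromosome 11 with 30 and chromosome 1 with 27. Their windows were richer in G and C than those of the table as a whole, with a median of 50.2% upstream and 48.0% downstream against 38.4% and 41.8% over all rows. AATAAA stood in the last 50 nt before the PAS in 56.6% of them (58.0% of all rows), ATTAAA without AATAAA in 12.5% (14.7%) and neither in 30.9% (27.2%). The motifs were searched on the transcribed strand only. An annotated exon on the same strand covered at least 250 nt of the downstream window in 86 short genes (26.3%, against 29.9% of all rows), and an exon on the other strand touched it in 92 (28.1%, against 17.9%). Where such an exon is present, downstream reads can come from a longer isoform, a neighbor or, since the strand setting of the counting is not given in the sources used here, an overlapping gene.

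The ends of the genes to which the results below return are printed from the hg19 genome (GRCh37), transcribed strand, 30 nt each, with the hexamer in capitals. The first set is of genes whose downstream/upstream ratio was higher in UV+.
TNFRSF12A, chr16:3072349-3072378, plus strand: ggagaatttattAATAAAagaatctttaac
UBXN1, chr11:62443978-62444007, minus strand: catctccttcctAATAAAtagaccctgagt
BCS1L, chr2:219528135-219528164, plus strand: ctcctctagctcAATAAAcatctgccacac
CENPB, chr20:3764518-3764547, minus strand: AATAAAtctgtccactccccttttgtgggg
C17orf89, chr17:79215069-79215098, plus strand: gtcaaatcctgcagcctggggcttactgtg
In the second set the ratio was lower in UV+.
IFITM2, chr11:309361-309390, plus strand: acaatggcattcAATAAAgtgtatatgttt
S100A4, chr1:153516101-153516130, minus strand: ctgagcaagttcAATAAAgattcttggaag
TMSB10, chr2:85133763-85133792, plus strand: atgaataatgaaAATAAAacacacctcgtg
HSPB1, chr7:75933576-75933605, plus strand: ctgtttttctcaAATAAAgttcaaagcaac
TMSB4X, chrX:12995314-12995343, plus strand: ttttaatatgcaAATAAAaagtttaaaaac
The third set is of genes whose upstream RNA changed.
TRIAP1, chr12:120881777-120881806, minus strand: tcctgaagatggAATAAAttgtaacattta
SFN, chr1:27190913-27190942, plus strand: atgtttcctctcAATAAAgttcccctgtga
EGR1, chr5:137804972-137805001, plus strand: aattaaaacgaaAATAAAgtagctgcgatt
HILPDA, chr7:128098437-128098466, plus strand: ttttttctaactAATAAAgtggaatatata
The same hexamer stood in genes of each set. Its first base lay 20 to 31 nt before the annotated end in 11 of these genes, 38 nt before it in IFITM2 and 50 nt in CENPB, while C17orf89 carried neither form in the last 50 nt.

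Upstream RNA was higher after UV in most of the short genes, with a log2 fold change above 0 in 240 of 327. They took 10.59% and 10.41% of all upstream reads in the UV− libraries and 15.85% and 15.6% in the UV+ libraries, so that the conditions did not overlap. Such shares, and the normalised reads below, are relative to the other rows of the same library, so absolute amounts of RNA were not measured. RNA was also taken from whole cultures, in which RNA per cell and the number of cells with that RNA cannot be told apart. The same separation was seen without S100A6, the most abundant short gene, at 7.801% and 8.224% against 12.27% and 12.24%. An exact permutation test of 2 libraries against 2 cannot fall below p = 0.33, which is the value reached here. Gene by gene, 86 short genes rose in the upstream window (limma, Benjamini-Hochberg adjusted p under 0.05, fitted over the whole table), where 11.7% of all rows did, and 18 fell, where 20.7% of all rows did. The median log2 fold change was 0.58 over the short genes and −0.24 over all rows. Among those that rose 62 changed at least 2-fold, and among those that fell 13 did. The 60 rows of the same length left out by symbol also leaned upward, with 29 higher, 4 lower and a median of 0.84.

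The longer coding genes were placed differently. Of 1363 coding rows of 4 to 20 kb, 225 rose and 85 fell (median 0.22). Of 1766 rows of 20 to 150 kb, 64 rose and 531 fell (median −0.77), and of 240 rows above 150 kb, 1 rose and 163 fell (median −2.22). Over the 3789 coding rows, gene length and upstream log2 fold change had a Spearman rho of −0.58, given as a description across genes that share the same 4 libraries. Within the short genes rho was −0.02 (n = 327), and neither the GC content of the upstream window (rho 0.04) nor the exon number (rho −0.02, n = 322) followed the change. The 33 coding rows below 500 nt went the other way from the short genes. In limma 26 were lower and 0 higher by the adjusted p (0 higher also by the unadjusted p), with a median of −2.18. Of these 33 rows, 32 had no annotated intron and 100% carried neither AATAAA nor ATTAAA. Replication-dependent histone genes were left out by symbol only at 500 to 4000 nt, and rows such as HIST1H2AG stay in this class. Whether length or gene type goes with the lower values was therefore not tested. The rows nearest the lower bound were HIST1H2AG at 498 nt (upstream log2 fold change −2.72) and C6orf226 at 552 nt (2.89). Those nearest the upper bound were WDR54 at 3998 nt (−0.22) and IL18BP at 4008 nt (1.48).

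**Figure D1:**
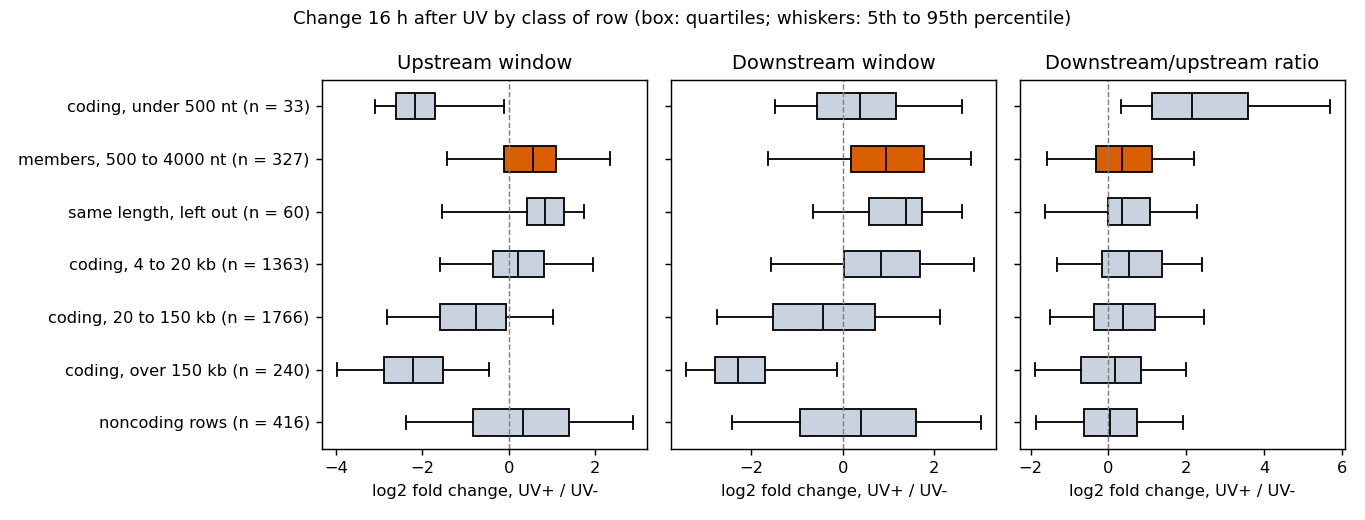
Log2 fold change between UV+ and UV− in the upstream window, the downstream window and their ratio (x axes) by class of row (y axis, with the number of rows). Boxes show quartiles with the median as a line and whiskers reach the 5th and 95th percentile; the short genes, in orange and called members on the axis, have medians of 0.58, 0.94 and 0.35, and rows above 150 kb have upstream and downstream medians of −2.22 and −2.29.

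The genes named for an upstream rise, the 10 with the smallest p, had different roles. TRIAP1, a p53 target that restrains apoptosis, was at 168 and 148 normalised reads in UV− and 863 and 929 in UV+ (means 158 ± 14.7 and 896 ± 46.6, SD, n = 2), a log2 fold change of 2.50 ± 0.20 (SE, limma adjusted p = 4.1e-06). SFN, the p53-induced 14-3-3 sigma protein that holds cells in G2, went from 4.17 and 6.56 to 65.1 and 76.4 normalised reads (3.51 ± 0.46, limma adjusted p = 0.00014). In both, every UV+ library lay far above both UV− libraries. EGR1, an immediate-early zinc finger transcription factor, had 0 reads in both UV− libraries and 39 and 51 in UV+, at least 25.7-fold higher against a floor of 3 reads over the condition (limma adjusted p = 0.00021). With 0 reads in UV−, EGR1 met the read minimum of the table through UV+ alone, so the direction of its change was fixed by that filter.

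A receptor and a transporter carried many reads and rose as clearly. TNFRSF12A, the receptor of the cytokine TWEAK, was at 218 and 198 normalised reads in UV− and 851 and 793 in UV+ (1.98 ± 0.20, limma adjusted p = 2e-05). SLC30A1, a zinc exporter of the plasma membrane, had 99 and 113 reads in UV− and 944 and 705 in UV+ (2.67 ± 0.23, limma adjusted p = 6.3e-06), and an annotated exon on the same strand covers all 500 nt behind its annotated end. The same holds for SERTAD1, a regulator of the cell cycle through CDK4 and E2F (12.5 and 4.92 against 160 and 102), for EID2B, an inhibitor of the acetyltransferase EP300 (43.1 and 30.4 against 190 and 161), and for IER5, an immediate-early response gene (37.6 and 44.3 against 154 and 159). The log2 fold changes of SERTAD1, EID2B and IER5 were 3.84 ± 0.45, 2.24 ± 0.28 and 1.91 ± 0.27 (limma adjusted p = 6.1e-05, 0.00012 and 0.00022). GPX1, a glutathione peroxidase, rose from 6.96 and 9.02 to 81.3 and 58.0 normalised reads (2.96 ± 0.43, limma adjusted p = 0.00027), and IMP3, a component of the nucleolar complex that processes ribosomal RNA, from 156 and 180 to 452 and 510 (1.51 ± 0.21, limma adjusted p = 0.00021).

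The short genes that fell upstream were fewer and of mixed function. CEBPD, a transcription factor of the acute-phase response, had 173 and 143 normalised reads in UV− and 25.2 and 19.3 in UV+ (−2.77 ± 0.30, limma adjusted p = 3.5e-05). HILPDA, a hypoxia-induced lipid droplet protein, was at 73.8 and 82.9 against 24.4 and 27.1 (−1.57 ± 0.32, limma adjusted p = 0.0028). C8orf4, also known as TCIM and described as a regulator of Wnt signaling, was at 40.9 ± 9.09 in UV− and 7.22 ± 4.74 in UV+ (SD, n = 2; −2.46 ± 0.55, limma adjusted p = 0.0046). The neutrophil chemokines CXCL2 and CXCL3 fell with them. CXCL2 was at 16.7 and 41.8 against 6.51 and 3.87 normalised reads (−2.19 ± 0.62, limma adjusted p = 0.016), and CXCL3 had 7 and 10 reads in UV− and 0 in both UV+ libraries, at least 6.62-fold lower. CXCL3 met the read minimum of the table upstream through UV− alone, so the direction of its change was fixed by that filter. CXCL2 and CXCL3 are close paralogs, so that reads in shared sequence may be split or lost between them. MED11, a subunit of the Mediator head (148 and 127 against 56.9 and 73.5), MAGEF1, a subunit partner of an E3 ligase (121 and 110 against 60.2 and 60.9), PRR15 (75.1 and 51.7 against 20.3 and 8.71), SPSB2, a substrate receptor of a ubiquitin ligase, MTFP1, a protein of mitochondrial fission, and UBXN1, a cofactor of the segregase p97, completed the 10 lowest by the naming rule, with log2 fold changes from −2.14 to −0.90. The conditions did not overlap in these genes, as the naming rule requires.

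**Figure D2:**
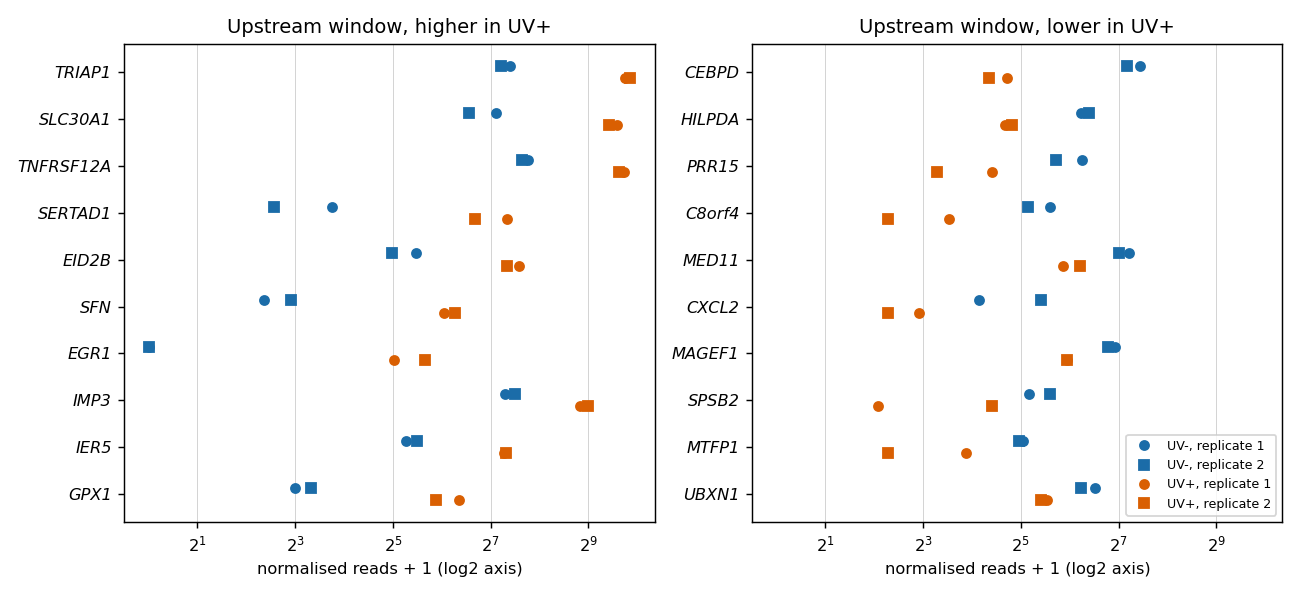
Upstream normalised reads plus 1 (x axis, log2 scale) of the 10 short genes with the smallest p in each direction (y axis), 1 point per library. The UV+ points of TRIAP1 lie at 863 and 929 normalised reads against 168 and 148 in UV−, and those of CEBPD at 25.2 and 19.3 against 173 and 143.

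Without 1 UV− library the spread was estimated from the UV+ pair alone. That pair differed more upstream (chi-square divided by its degrees of freedom 5.7, against 3.52 in UV−). A call lost in such a fit therefore does not show that it depended on the UV− values, and most folds moved little. With either UV− library left out, 0 short genes passed in the upstream window in limma in either direction, and without UV+ replicate 1 or 2 it was 43 or 49 higher and 19 or 7 lower. Of the 56 named genes called upstream, all 56 kept their direction without either UV− library, and in 51 the fold moved by at most 1.5 times. The change of TRIAP1 was 2.59 and 2.40 without UV− replicate 1 or 2, that of TNFRSF12A 2.05 and 1.91 and that of SLC30A1 2.95 and 2.38. Among the others, SERTAD1 was at 4.44 and 3.25, CXCL2 at −2.82 and −1.55 and THOC6 at 3.52 and 4.92. Without UV+ replicate 2 the upstream change of MTFP1 was −1.12 (−1.92 with it) and that of C8orf4 −1.84, and without UV+ replicate 1 that of SPSB2 was −0.97 (−2.13 with it). TMM scaling, which moved the median of all rows by 0.19 upstream, by −0.13 downstream and by −0.31 in the ratio on the log2 scale, gave 116 higher and 12 lower upstream.

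RNA downstream of the PAS was also higher after UV in the short genes. Their share of all downstream reads was 5.992% and 5.981% in UV− and 11.19% and 11.39% in UV+ (exact permutation p = 0.33, the smallest possible). In limma 56 rose, where 11.7% of all rows did, and 5 fell, where 9.41% of all rows did. The median log2 fold change was 0.94, and 0.24 over all rows. The downstream rise was not particular to the short genes. Of 1363 coding rows of 4 to 20 kb, 244 rose (17.9%, against 17.1% of the short genes) and 31 fell, with a median of 0.83. Of the 60 rows of the same length left out by symbol, 23 rose and 1 fell, with a median of 1.39. All of the 56 short genes that rose changed at least 2-fold and 45 at least 4-fold. Without either UV− library 0 rose and 2 fell, and without UV+ replicate 1 or 2 it was 18 or 17 higher and 0 or 1 lower.

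Upstream and downstream log2 fold changes had a rho of 0.55 across the 327 short genes, 28 rose in both windows by the adjusted p, where 5.25% of all rows did, 3 fell in both (C8orf4, HILPDA and FZD2), where 6.75% of all rows did, and 0 went opposite ways, where 0.119% of all rows did. SLC30A1 had 253 and 208 normalised downstream reads in UV− and 1578 and 1524 in UV+ (2.75 ± 0.20, limma adjusted p = 0.00011), where an exon on the same strand covers the window. TNFRSF12A rose from 16.7 and 15.6 to 189 and 264 normalised reads (3.71 ± 0.30, limma adjusted p = 0.00014). An exon on the other strand covers 258 nt of this window. It is where HCFC1R1 ends, a short gene on the minus strand whose own upstream window was at 48.7 and 45.9 normalised reads in UV− and 112 and 74.5 in UV+ (0.94, limma adjusted p = 0.030), and its part in the downstream value of TNFRSF12A was not tested. C17orf89, an assembly factor of respiratory complex I, rose from 8.35 and 14.8 to 84.6 and 77.4 (2.75 ± 0.39, limma adjusted p = 0.0024).

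Among the stress genes without a downstream exon on their own strand, EGR1, PPP1R15A and DDIT3 rose on both sides by the adjusted p and others did not. PPP1R15A, the GADD34 subunit that leads a phosphatase to eIF2alpha, went from 12.5 and 15.6 to 65.9 and 91.9 normalised reads upstream and from 9.74 and 9.02 to 82.9 and 51.3 downstream (limma adjusted p = 0.00044 and 0.0033). DDIT3, the transcription factor CHOP, went from 18.1 and 12.3 to 81.3 and 43.5 upstream and from 11.1 and 14.8 to 63.4 and 79.3 downstream (limma adjusted p = 0.0043 and 0.0035), but its downstream window is covered by an exon on the other strand. In UV+ the downstream mean was 67.1 normalised reads in PPP1R15A against 78.9 upstream, and 71.4 in DDIT3 against 62.4 upstream. ATF4 rose upstream and did not pass downstream (limma adjusted p = 0.096), CEBPB fell upstream (−0.98, limma adjusted p = 0.042), and DUSP1 and DDIT4 passed in neither window (limma adjusted p = 0.65 and 0.56 for DUSP1 and 0.55 and 0.45 for DDIT4). Among the genes that fell, HILPDA was at 64.0 and 73.8 against 26.0 and 20.3 downstream (−1.54 ± 0.33, limma adjusted p = 0.014), nearly its upstream change, and C8orf4 at 113 ± 17.2 against 20.6 ± 11.9 (SD, n = 2; −2.51 ± 0.40, limma adjusted p = 0.0047; −1.92 without UV+ replicate 1). FZD2, a Wnt receptor without introns, had upstream reads of 11 and 21 (UV−) and 1 and 2 (UV+), and 3 and 10 downstream against 0 in both UV+ libraries. Both windows of FZD2 met the read minimum of the table through UV− alone, so the direction of its change was fixed by that filter. ID1 and RSC1A1, also among the 5 lowest downstream by the naming rule, did not pass (−1.93 ± 0.63 and −1.79 ± 0.62, limma adjusted p = 0.052 and 0.062).

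**Figure D3:**
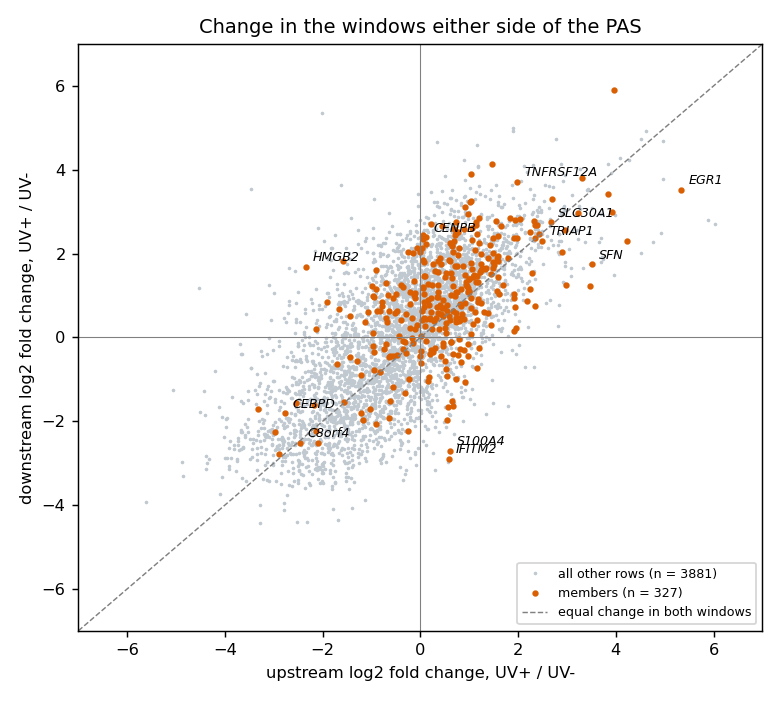
Downstream (y axis) against upstream (x axis) log2 fold change between UV+ and UV−, 1 point per row, with the 327 short genes in orange (members in the legend) and the 3881 other rows in gray; the dashed line marks equal change. TNFRSF12A lies at 1.98 upstream and 3.71 downstream, above the line of equal change, and S100A4 and IFITM2 lie below 0 downstream with upstream changes of 0.61 and 0.58.

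The downstream/upstream ratio was higher in UV+ in the short genes, by the sum of reads and by the median, and in the other rows by the median. Summed over the short genes, downstream reads were 10.94% and 10.3% of the upstream reads for UV− and 13.57% and 14.33% for UV+, and over all other rows 20.34% and 18.81% against 20.28% and 20.6%. The median log2 ratio of the short genes was −2.063 and −2.055 in UV− and −1.627 and −1.583 in UV+, and that of all other rows −1.548 and −1.571 against −1.183 and −1.182. The difference between these medians was −0.5154 and −0.4836 in UV− and −0.4441 and −0.4011 in UV+. Against the coding rows of 4 to 20 kb the difference went the other way, from −0.1798 and 0.02117 in UV− to −0.2931 and −0.2105 in UV+ (exact permutation p = 0.33 for each of these but the summed share of the other rows, p = 0.67). Short genes with more downstream than upstream reads numbered 35 and 41 in UV− and 55 and 74 in UV+.

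At an unadjusted limma p under 0.05, the threshold of the study, the ratio rose in 34 short genes and fell in 9. Over all rows 11.0% rose and 2.4% fell, and these counts, 10.4% and 2.75% of the short genes, are close to that background. The median change was 0.35 in the short genes and 0.38 over all rows. With TMM scaling of each window the split became 20 higher and 19 lower and the median 0.04. By the adjusted p, 0 short genes passed in either direction in limma, against 0.143% of all rows higher and 0.0238% lower, whereas edgeR and DESeq2 on the recovered reads each called 3 higher and 2 lower and limma on rows with a mean of at least 10 called 8 higher and 1 lower. The same 5 genes were called by edgeR and by DESeq2, namely TNFRSF12A, C17orf89 and UBXN1 (higher) and S100A4 and IFITM2 (lower). All 34 genes with a higher ratio had a downstream change above 0, which passed the adjusted p in 19, and 16 of them had an upstream change below 0, which passed in 5.

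Among these 5 genes the change lay on different sides of the PAS. In TNFRSF12A both windows rose and the downstream window rose more, so that the downstream mean went from 7.76% to 27.5% of the upstream mean (ratio change 1.73 ± 0.41, limma adjusted p = 0.18), in a window that holds the end of HCFC1R1 on the other strand. In C17orf89 the ratio change was 2.03 ± 0.52 (limma adjusted p = 0.21) with a smaller upstream rise of 0.73 ± 0.22. In UBXN1 the upstream window fell from 90.5 and 74.6 to 45.5 and 41.6 normalised reads, while the downstream window was at 11.1 and 5.74 against 19.5 and 35.8 (2.50 ± 0.66, limma adjusted p = 0.22).

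S100A4 and IFITM2 moved in the reverse sense. S100A4, a calcium-binding protein of motile cells, held 337 and 865 reads before its PAS in UV− and 1172 and 838 in UV+, but 22 and 19 downstream reads in UV− and only 1 and 6 in UV+ (ratio change −3.31 ± 0.94, limma adjusted p = 0.23). It missed the unadjusted threshold without UV− replicate 1 (−2.55) and without UV+ replicate 1 (−2.24). IFITM2, an interferon-induced membrane protein that restricts viral entry, had 31 and 56 reads before the PAS in UV− against 89 and 64 in UV+, and 6 and 6 downstream reads against 0 in both UV+ libraries (−3.47 ± 0.93, limma adjusted p = 0.22). Downstream reads of IFITM2 were at least 4.67-fold lower in UV+, and its fitted ratio change depends on how 0 is handled, being −1.74 with a pseudocount of 5 and −6.35 in edgeR. The downstream windows of S100A4 and IFITM2 met the read minimum of the table through UV− alone, which fixed the direction of change there. IFITM2 shares much of its sequence with other IFITM genes, and its reads may be split between them.

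Other genes named for a higher ratio differed in the same way among themselves. CENPB, which binds the CENP-B box of centromeric satellite DNA and has no intron, was level upstream (19.5 and 24.6 against 22.8 and 25.2 normalised reads) and rose downstream from 4.17 and 5.74 to 24.4 and 36.8 (limma adjusted p = 0.015). BCS1L, an assembly factor of respiratory complex III, had 0 downstream reads in UV− and 19 and 13 in UV+, at least 9.13-fold higher, with 5 and 11 upstream reads against 21 and 18. The downstream window of BCS1L met the read minimum of the table through UV+ alone, which fixed the direction of change there. SDHAF1, an assembly factor of succinate dehydrogenase, was at 57.1 and 55.0 against 65.9 and 83.2 upstream and at 55.7 and 27.9 against 155 and 144 downstream (ratio change 1.50 ± 0.42, limma adjusted p = 0.23). HMGB2, a chromatin architectural protein, had 13 and 18 reads before the PAS in UV− against 13 and 0 in UV+, and its ratio change of 4.04 ± 1.03 (limma adjusted p = 0.21) was 2.13 without UV+ replicate 2. In SPSB2 (2.32 ± 0.49, limma adjusted p = 0.12) and TMEM223 (1.91 ± 0.60, limma adjusted p = 0.26) an exon on the other strand covers the whole downstream window. The change of SPSB2 was 1.53 without UV+ replicate 1, and that of TMEM223 was 1.24 without UV− replicate 2 and 1.16 without UV+ replicate 2. PIGBOS1, a mitochondrial microprotein, was at 43.1 and 40.2 against 52.9 and 133 downstream (1.96 ± 0.54, limma adjusted p = 0.23), and its ratio change was 1.12 without UV+ replicate 2, where it missed the unadjusted threshold, as did TMEM223 without either library named.

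The 9 genes with a lower ratio included abundant ones with few downstream reads. TMSB10, an actin-sequestering thymosin, rose upstream from 2220 and 2404 to 3730 and 3888 normalised reads and had 37.6 and 33.6 against 34.2 and 8.71 downstream (ratio change −1.71 ± 0.66, limma adjusted p = 0.32). Without UV+ replicate 2 the ratio change of TMSB10 was −0.75 and missed the unadjusted threshold, and an exon on the other strand covers 333 nt of its downstream window. Its paralog TMSB4X was at 1233 and 1504 against 1830 and 2111 upstream and at 26.4 and 27.1 against 17.9 and 13.5 downstream (−1.27 ± 0.57, limma adjusted p = 0.37). Both have processed copies elsewhere in the genome, and reads of low mapping quality had been removed. HSPB1, a small heat shock protein, had 4 and 13 downstream reads in UV− and 2 in each UV+ library (−2.23 ± 0.91, limma adjusted p = 0.34), and CXCL5, a neutrophil chemokine, had 11 and 8 against 5 and 2 (−2.17 ± 0.93, limma adjusted p = 0.36; −1.41 without UV− replicate 1). In HSPB1 and CXCL5 the downstream window met the read minimum of the table through UV− alone. In SLC10A5, a gene of the bile acid transporter family, the fall of −1.59 ± 0.67 (limma adjusted p = 0.36) came with upstream reads of 2 and 0 against 6 and 16, and was −0.51 without UV− replicate 2. The upstream window of SLC10A5 met the minimum through UV+ alone. CRB3, MT1X and EIF1, the last of the 10 by the naming rule, missed the unadjusted threshold (limma adjusted p = 0.38 in each).

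**Figure D4:**
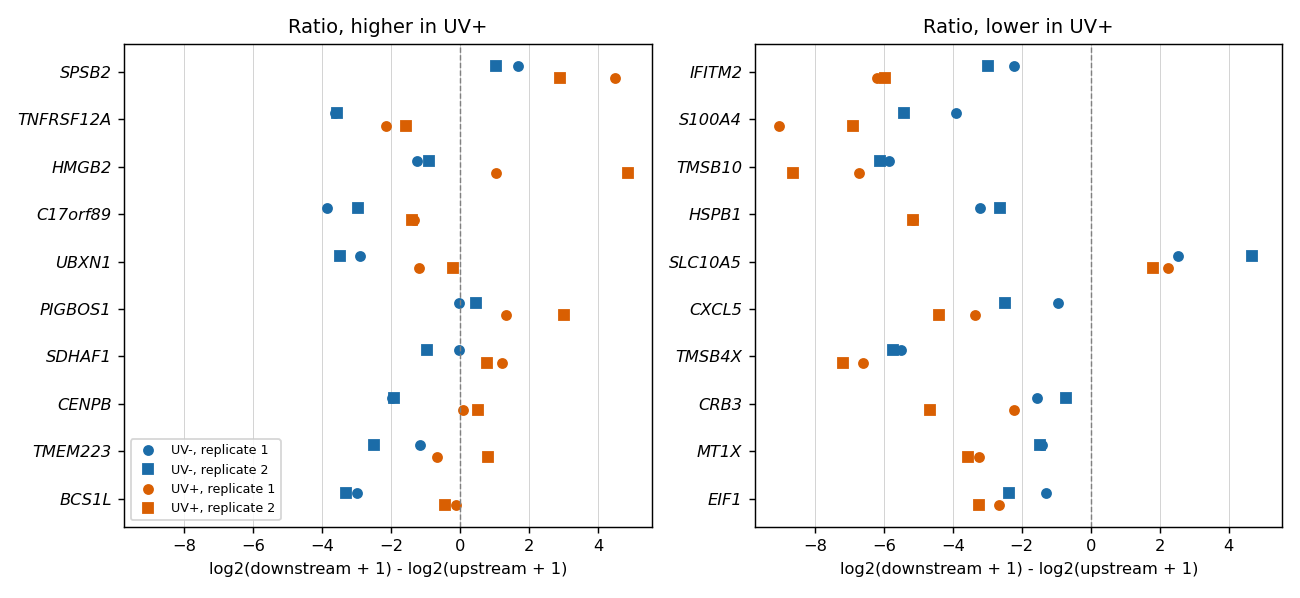
Log2 downstream/upstream ratio with a pseudocount of 1 (x axis) of the 10 short genes with the smallest p in each direction (y axis), 1 point per library. By the naming rule the conditions do not overlap in the genes shown, and the dashed line at 0 marks equal reads in both windows; TNFRSF12A stays to its left in all 4 libraries, whereas CENPB lies to its left in UV− and to its right in UV+.

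Functional lists placed 149 of the 327 short genes in 15 groups. Their counts are read against all short genes by the adjusted p. Of these, 26.3% rose and 5.5% fell upstream, and 17.1% rose and 1.53% fell downstream. Of 20 stress and immediate-early genes, 8 rose upstream (EGR1, SERTAD1, PPP1R15A, ID2, IER5, DDIT3, RHOB and ATF4), 2 fell (CEBPD and CEBPB) and 10 did not pass, with a median of 0.53 against 0.58 over all short genes. ID2, a repressor of helix-loop-helix factors, went from 47.3 and 34.5 to 124 and 206 normalised reads (1.96 ± 0.31, limma adjusted p = 0.00051), whereas its relative ID1 was at 163 and 191 against 122 and 104 (−0.64 ± 0.24, limma adjusted p = 0.053). ATF4, the transcription factor of the integrated stress response, was at 281 and 215 against 429 and 336 (0.62 ± 0.23, limma adjusted p = 0.049), at the threshold. Downstream 4 of the 20 rose (EGR1, SERTAD1, PPP1R15A and DDIT3) and 0 fell in limma (7 higher and 2 lower at an unadjusted p under 0.05), and in the ratio 0 passed in either direction at the unadjusted p.

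All but 1 of the 5 genes listed as p53 targets rose upstream (TRIAP1, SFN, ID2 and GDF15), and GADD45B did not pass (0.52 ± 0.25, limma adjusted p = 0.12). ID2 is also counted among the stress and immediate-early genes above. GDF15, a stress cytokine, had 36 and 51 reads in UV− and 101 and 92 in UV+ (0.89 ± 0.29, limma adjusted p = 0.031). The list of chemokines, cytokines and NF-kB feedback split, with TNFRSF12A higher, CXCL2 and CXCL3 lower and 4 of 7 not passing, among them NFKBIA, the inhibitor of NF-kB (0.34 ± 0.21, limma adjusted p = 0.21). Of 6 chaperones, DNAJC30 rose (1.95 ± 0.67, limma adjusted p = 0.041; 1.30 without UV− replicate 1 and 1.33 without UV+ replicate 2) and DNAJB1, a cochaperone of HSP70, fell (−0.71 ± 0.23, limma adjusted p = 0.035).

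The housekeeping lists are read against the short genes as a whole, of which 26.3% rose and 5.5% fell upstream. FTL, the ferritin light chain, GPX1 and GSTP1, a glutathione transferase, rose upstream among 8 metal-binding and redox genes and 0 fell in limma by the adjusted or the unadjusted p. FTL alone went from 2435 and 2623 to 6957 and 5528 normalised reads (1.29 ± 0.21, limma adjusted p = 0.0006), whereas the heavy chain gene FTH1 was at means of 256 and 294 (0.17, limma adjusted p = 0.58). Of 10 genes listed as translation and nascent chain factors, 5 rose (FAU, EMC6, EEF1B2, EIF1 and TMED9) and 0 fell by either p. FAU, which codes for a ubiquitin-like protein fused to a small-subunit ribosomal protein, went from 79.3 and 90.2 to 215 and 308 (1.59 ± 0.25, limma adjusted p = 0.00045). Of 13 cytoskeletal and calcium-binding genes, 5 rose upstream (CFL1, MYL6, RHOB, TMSB10 and TUBB4B) and 0 fell by the adjusted p (11 higher and 1 lower by the unadjusted p), led by the actin-severing protein CFL1 with 323 and 401 against 899 and 787 normalised reads (1.22 ± 0.20, limma adjusted p = 0.00071). The same list held 3 of the 9 lower ratios (S100A4, TMSB10 and TMSB4X) and 0 of the 34 higher ones, with a median ratio change of −0.75.

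For the ratio the other lists are read against the 10.4% of short genes higher and 2.75% lower at the unadjusted p. Downstream they are read against the 17.1% of short genes higher and 1.53% lower by the adjusted p. Of 9 cell cycle and chromatin genes, 0 passed upstream in limma (1 higher and 2 lower at an unadjusted p), and H2AFZ, CENPB, HMGB2 and CDKN2AIP had a higher ratio, with a list median of 1.54. A list of 18 genes under glycolysis and central metabolism was broad, with assembly factors (SDHAF1 and BCS1L), a proton pump subunit (ATP6V1F) and a transporter (SLC10A5) among them. Of these 18, 4 rose upstream (APRT, ATP6V1F, MIF and APOE), 6 rose downstream (SDHAF1, NAPRT, BCS1L, APRT, ATP6V1F and APOE) and 0 fell in either window by the adjusted or the unadjusted p, while 4 had a higher and 1 a lower ratio. NAPRT, BCS1L, APRT and APOE met the downstream read minimum of the table through UV+ alone. ATP6V1F, a subunit of the vacuolar proton pump, had 22 and 41 upstream reads against 109 and 62 and 8 and 10 downstream reads against 85 and 49 (limma adjusted p = 0.017 and 0.0055). The glycolytic enzymes GAPDH and TPI1 did not pass upstream (0.60 ± 0.23 and 0.50 ± 0.20, limma adjusted p = 0.057 and 0.076). Of 10 proteasome and ubiquitin genes, PSME1, PSMB4 and FAU rose upstream, UBXN1 fell, and PSMB4, PSMB10, UBE2M and UBXN1 had a higher ratio. PSMB4, a beta subunit of the proteasome core, had 119 and 234 upstream reads against 447 and 367 and 3 and 0 downstream reads against 21 and 25 (ratio change 2.22 ± 1.00, limma adjusted p = 0.37), and without UV− replicate 2 its ratio change was 0.93. Its downstream window met the read minimum of the table through UV+ alone.

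In the list of RNA polymerase and general transcription genes, TAF7, POLR2K and THOC6 rose, MED11 fell and 6 of 10 did not pass. THOC6, of the complex that couples transcription to export, had 0 and 2 upstream reads in UV− and 33 in each UV+ library (4.22 ± 0.76, limma adjusted p = 0.0012), and an exon on the other strand lies in its downstream window. THOC6 met the upstream read minimum of the table through UV+ alone, so the direction of its change was fixed by that filter. Among 13 genes of splicing, RNA processing and export, EXOSC4, TRMT12, NOP10, RPP25L and TRMT112 rose and 0 fell by either p, and SF3B5 and POP5 had a higher ratio. EXOSC4, a subunit of the RNA exosome, had 10 and 24 upstream reads against 73 and 40 (1.48 ± 0.41, limma adjusted p = 0.015). Of 7 receptors and channels, 2 rose upstream, among them TNFRSF12A, and FZD2 fell. Of 6 zinc finger genes of the ZNF series only ZNF830 passed upstream (1.43 ± 0.41, limma adjusted p = 0.018), and ZNF579 had a higher ratio on 5 and 0 upstream reads in UV+ (3.41, and 2.05 without UV− replicate 1 and 1.81 without UV+ replicate 2). Of 13 genes of the TMEM series, TMEM147, TMEM261, TMEM208 and TMEM95 rose and TMEM223 fell. TMEM95, at 0 upstream reads in UV−, met the read minimum there through UV+ alone.

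The 8 most abundant short genes in UV− all had an upstream change above 0, and 3 of them passed, where 26.3% of all short genes rose. S100A6, a calcium-binding protein, held 10203 and 8129 normalised reads before its PAS in UV− and 14011 and 12675 in UV+ (0.55 ± 0.23, limma adjusted p = 0.083). Only 10 to 25 reads per library lay behind its PAS, so that the downstream mean was 0.148% of the upstream mean in UV− and 0.161% in UV+. GAPDH was at 1142 and 1732 against 2274 and 1999 upstream and had 3 to 7 downstream reads per library. SPCS1, a subunit of the signal peptidase, was at 686 and 737 against 814 and 1035 upstream (limma adjusted p = 0.17) and rose downstream from 19.5 and 26.2 to 61.8 and 76.4 (1.56 ± 0.34, limma adjusted p = 0.014), where an exon covers the window. Of the 8 genes highest in UV−, FTL, TMSB10 and GSTP1 (0.62 ± 0.22, limma adjusted p = 0.049) rose and the other 5 did not pass. Each of the 8 held at least 405 upstream reads in every library.

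The short genes were also split by annotation, as a description. Of 78 without an annotated intron, 22 rose and 7 fell upstream (28.2% and 8.97%, median 0.50), and of 244 with introns 63 rose and 11 fell (25.8% and 4.51%, median 0.57). By hexamer, 55 of 185 with AATAAA, 15 of 41 with ATTAAA and 16 of 101 with neither rose upstream (29.7%, 36.6% and 15.8%). The ratio was higher in 10.3%, 12.2% and 9.9% of these and lower in 3.78%, 2.44% and 0.99%. Among 241 short genes with less than 250 nt of same-strand exon downstream, 67 rose and 16 fell upstream, 44 rose and 5 fell downstream and 27 had a higher and 8 a lower ratio, with medians of 0.63, 1.04 and 0.34. Among the 86 with a longer exon there, 19 rose and 2 fell upstream, 12 rose and 0 fell downstream (26 and 3 by the unadjusted p in limma) and 7 had a higher and 1 a lower ratio, with medians of 0.35, 0.74 and 0.39. The differences between these subsets were not tested.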

How the data were processed

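Nuclear RNA of A549 cells, depleted of ribosomal RNA, was sequenced from stranded libraries as single-end reads, 2 per condition. According to the methods and the submitters' processing notes, the authors removed primer sequence (cutadapt), mapped to hg19 (TopHat2), dropped alignments of low mapping quality (SAMtools) and used featureCounts in R 3.4.0 for windows of 500 nt before and behind the PAS; a gene needed 10 reads per window in 1 condition, and one whose downstream window met another gene was discarded. A gene with fewer than 10 reads in a window over 1 condition, 0 included, met this minimum there through the other condition alone. The direction of its read change in that window was thus fixed by the filter. Such genes were kept in the counts of calls and in the lists. The deposited signal values are the window counts divided by a library's size factor (UV−, 0.7186 and 1.2191, and UV+, 1.2298 and 1.0338) and are called normalised reads. Multiplying by the factor gave whole reads for 100% of values (tolerance 1e-06). The deposited columns of the authors' own comparison (fold changes, a statistic and p-values) were not used. The UV+ columns were matched to their samples by the replicate number in the labels. Of the short genes, 1 row with a symbol turned into a date was kept unnamed.

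Log2 values with a pseudocount of 1, and their difference between windows, were tested with limma 3.58.1 (R 4.3.3, variance trend; for the ratio the trend followed downstream reads), two-sided, over all 4208 rows; fold changes on this scale understate those of low genes. Calls needed an adjusted p (Benjamini-Hochberg) below 0.05, and the ratio was called also at an unadjusted p under 0.05. In simulated data, 200 of 4208 genes were given a 4-fold upstream change, with no change downstream and 1 dispersion (0.0475) for both windows. At the adjusted p, limma recovered 91% of those raised and 67% of those lowered in the upstream window. In the ratio it recovered 20% of the genes raised upstream, whose ratio falls, and 32% of those lowered upstream, whose ratio rises. Ratio changes that come from the downstream window were not simulated. Alternatives were pseudocounts of 0.5 and 5, a mean of at least 10, edgeR 4.0.16 and DESeq2 1.42.0 on recovered reads, TMM factors, a replicate block, limma with no trend and each library left out. Exact permutation tests of 2 against 2 libraries are two-sided. Named genes were those of smallest p per direction (10 upstream and for the ratio, 5 downstream; mean of at least 10, in either window for the ratio, conditions apart), the 8 highest in UV− and up to 4 per list; any other gene was picked with its values known. The short genes, the rule and the 15 lists were chosen with earlier results of these data known. Exons came from GENCODE 44 lifted to GRCh37, the build of the table, with Python 3.11.15. A gene withheld from the text is not reported here.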

Additional observations from a re-analysis of the deposited data

How the results depend on the processing

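With 2 libraries per condition the counts of calls depended most on single libraries, and the depth of the downstream window, a median of 5 to 15 reads per short gene, limited the ratio. Over the fits without 1 library, in which a lone library is assumed to vary like the other condition, the upstream counts were 0 to 49 higher and 0 to 19 lower, the downstream counts 0 to 18 higher and 0 to 2 lower, and the ratio at an unadjusted p 18 to 42 higher and 3 to 20 lower, with medians of 0.48 to 0.60 upstream, 0.82 to 0.97 downstream and 0.30 to 0.43 for the ratio. Without the trend limma called 38 higher and 9 lower upstream and 31 and 3 downstream. DESeq2 called 59 higher and 8 lower upstream and 26 and 2 downstream. A pseudocount of 5 gave 10 lower downstream, 16 lower ratios and 2 higher ratios by the adjusted p, and medians of 0.50, 0.60 and 0.18 (upstream, downstream, ratio). TMM factors gave 20 higher and 19 lower ratios and medians of 0.77, 0.80 and 0.04. Requiring a mean of at least 10 gave 4 lower ratios and, by the adjusted p, 8 higher and 1 lower. By the adjusted p, edgeR and DESeq2 each called 3 higher and 2 lower ratios. The ratio median was 0.41 with a pseudocount of 0.5 and with a mean of at least 10, 0.42 with edgeR and 0.44 with DESeq2, whose downstream medians were 1.06 and 1.07. The replicate numbers are shared between the conditions, but same-numbered libraries deviated together only weakly (correlations of 0.0348 upstream, 0.053 downstream and 0.0413 for the ratio), so the replicate block is given here once: it called 99 higher and 26 lower upstream, 84 and 9 downstream, and 3 higher and 0 lower ratios by the adjusted p. No named gene whose change was called reversed its direction under any of these alternatives, and the cause of the differences was not tested.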

Other observations

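Of the short genes, 5 had 0 upstream reads in both UV− libraries, and their reads in UV+ differed widely. They were chosen after their values were seen. They met the minimum of 10 reads upstream through UV+ alone, so the direction of their upstream change was fixed by the filter and is not a result. EGR1 (39 and 51 reads) is described in the report. TMEM95, a gene known for a sperm membrane protein, had 23 and 11 upstream reads in UV+ (at least 9.7-fold higher, limma adjusted p = 0.0049) and 15 and 4 downstream reads against 0 in both UV− libraries. TSTD1, which codes for a thiosulfate sulfurtransferase-like protein, had 13 and 10 (at least 6.56-fold, limma adjusted p = 0.012). SOCS1, a feedback inhibitor of cytokine signaling without introns, had 12 and 3 upstream (limma adjusted p = 0.061) and 7 and 14 downstream reads (limma adjusted p = 0.021). FAM71A had 17 and 0 upstream reads (limma adjusted p = 0.27) and 9 and 5 downstream (limma adjusted p = 0.027), so that its upstream reads came from 1 UV+ library.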
